A study of Mus musculus with 2 samples.

Results

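The extracellular proteases of the heart and their inhibitors were described in hearts of male B6CASTF1/J mice, an F1 hybrid of the B6 and CAST strains, taken at an age of 36 days. The genes were chosen by name and class: every gene whose symbol begins with Mmp, Timp, Adamts, Adamtsl or Adam followed by a digit and that has at least 1 protein-coding transcript. This gave 84 of 55536 annotated genes, with 23 Mmp, 4 Timp, 33 Adam, 19 Adamts and 5 Adamtsl genes on 19 chromosomes. Total RNA of heart tissue, 300 ng per library, was sequenced after ribosomal RNA reduction, with synthetic ERCC spike-in RNAs added. The labels give 1 group of 2 biological replicates, called heart 1 and heart 2 here. They are separate biosamples that share a donor entry. The labels do not say if this means 1 animal, so the spread between them may be partly technical. No treatment, genotype or age was compared.

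Matrix metalloproteinases (MMPs) are zinc-dependent enzymes that cut collagens, elastin and other matrix proteins, and most are secreted as inactive precursors. The tissue inhibitors of metalloproteinases (TIMPs) bind their active sites. ADAMs are membrane-anchored relatives, some of which release growth factors, cytokines and receptors from the cell surface, whereas ADAMTS proteases are secreted and act on proteoglycans, procollagens and microfibrils. ADAMTS-like proteins share the ancillary domains of that family but have no protease domain. In the heart these families are known for the turnover of the collagen network and for the clearing of versican and the shaping of valves during development.

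The libraries held 41846508 and 42481559 expected counts in hearts 1 and 2, of which 203838 and 199815 fell on spike-ins. The heart label was checked with 8 cardiomyocyte markers, all at 1 TPM or more (a measure of transcript abundance scaled for transcript length and library size), which summed to 27742 TPM in heart 1 and 30436 TPM in heart 2. The hearts differed in other tissue signals: 6 adipocyte markers summed to 61.7 and 4.31 TPM, 6 erythroid markers to 20328 and 9336 TPM, 8 fibroblast markers to 507 and 436 TPM, and 7 mesothelial and epicardial markers to 30.1 and 22.8 TPM in hearts 1 and 2. In such bulk tissue, fewer cells of a type and less RNA per cell cannot be told apart.

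Promoter sequences are shown for 5 genes that stand at the extremes of the results: Timp3, the most abundant gene of the set, Adamts1, the gene of the set with over 2-fold between hearts at high counts, and Mmp3, Mmp13 and Mmp10 of the Mmp gene cluster, which had few counts here. Each line gives the 250 bases before the RefSeq transcript start on GRCm38.p6, 5′ to 3′ on the strand of the gene. Capitals mark the letters TGAGTCA or TGACTCA, the palindrome-like site bound by AP-1 factors read on either strand, and TATAAA, the core of a TATA box read on the strand of the gene.
Timp3, chr10:86300162-86300411, plus strand: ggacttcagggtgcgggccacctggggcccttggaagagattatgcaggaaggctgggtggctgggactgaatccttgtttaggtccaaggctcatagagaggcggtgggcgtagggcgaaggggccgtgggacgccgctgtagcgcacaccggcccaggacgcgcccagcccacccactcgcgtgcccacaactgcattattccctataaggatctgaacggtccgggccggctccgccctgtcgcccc
Adamts1, chr16:85803114-85803363, minus strand: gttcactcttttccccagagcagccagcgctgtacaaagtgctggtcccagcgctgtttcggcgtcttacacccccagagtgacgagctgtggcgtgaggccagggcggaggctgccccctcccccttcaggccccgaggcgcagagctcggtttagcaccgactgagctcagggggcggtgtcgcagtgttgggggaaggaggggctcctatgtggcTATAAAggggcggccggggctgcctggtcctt
Mmp3, chr9:7445572-7445821, plus strand: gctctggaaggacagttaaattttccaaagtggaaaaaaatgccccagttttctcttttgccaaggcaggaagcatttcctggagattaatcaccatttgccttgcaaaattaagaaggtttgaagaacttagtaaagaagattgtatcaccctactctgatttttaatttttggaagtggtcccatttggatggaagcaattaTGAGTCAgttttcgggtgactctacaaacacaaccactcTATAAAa
Mmp13, chr9:7272264-7272513, plus strand: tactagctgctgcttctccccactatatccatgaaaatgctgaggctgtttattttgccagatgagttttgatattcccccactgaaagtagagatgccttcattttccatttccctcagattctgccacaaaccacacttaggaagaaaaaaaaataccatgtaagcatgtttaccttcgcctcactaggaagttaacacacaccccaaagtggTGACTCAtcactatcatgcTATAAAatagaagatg
Mmp10, chr9:7502092-7502341, plus strand: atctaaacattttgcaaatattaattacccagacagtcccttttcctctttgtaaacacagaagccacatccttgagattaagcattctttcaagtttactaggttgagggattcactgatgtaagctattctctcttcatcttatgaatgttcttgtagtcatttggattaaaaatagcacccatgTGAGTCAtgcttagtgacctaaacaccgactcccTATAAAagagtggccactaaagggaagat
In Mmp3 the AP-1 letters begin 46 bases and the TATAAA letters 7 bases before the annotated start. In Mmp13 they begin 35 and 16 bases before it, and in Mmp10 63 and 29 bases before it. Adamts1 has TATAAA 32 bases before its start and no AP-1 letters in the stretch shown. In the stretch of Timp3 neither set of letters was found, which says only that these letters are not in this window.

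A minority of the 84 genes was well expressed. At 1 TPM or more in both hearts were 32 of 84 genes, or 38.1%, against 10943 of 22015 nuclear protein-coding genes, or 49.7%. The share differed widely between families: 4 of 4 Timp, 4 of 5 Adamtsl, 11 of 19 Adamts, 7 of 23 Mmp and 6 of 33 Adam genes passed that level. In both hearts, 23 genes had no counts in the first quantification (27.4%, against 24.9% of nuclear protein-coding genes), and another 10 had a mean expected count under 10. The set summed to 472 TPM in heart 1 and 430 TPM in heart 2, or 0.125% and 0.113% of the TPM of nuclear protein-coding genes. The 3 most abundant genes carried 35.7% and the 10 most abundant 72.2% of the set's TPM.

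**Figure D1:**
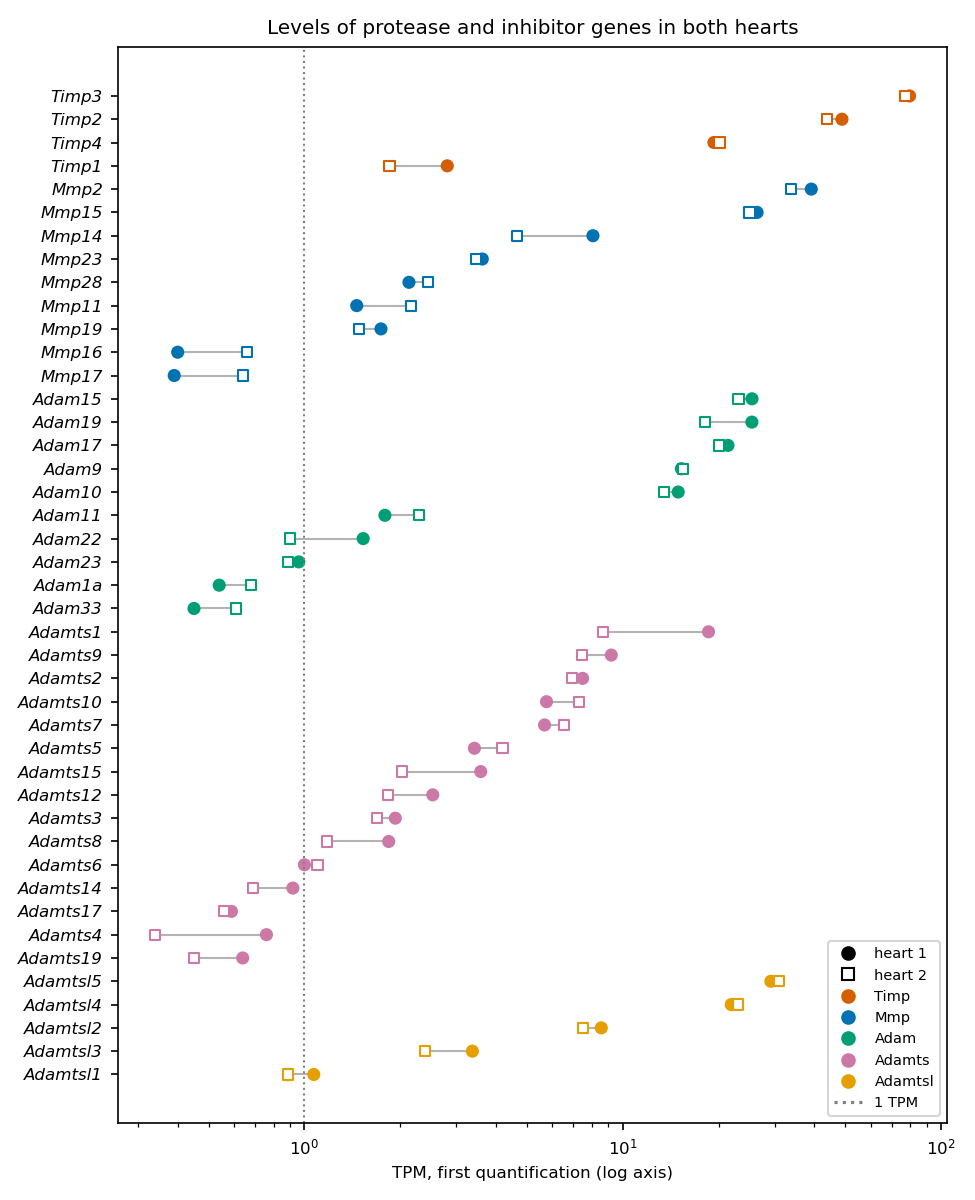
Level of each gene with a mean of 0.5 TPM or more, one row per gene, grouped by family; the x axis is TPM in the first quantification on a log scale, filled circles are heart 1 and open squares heart 2, and the dotted line is 1 TPM. Timp3 is furthest right, at 79.6 and 77.3 TPM, and Adamts1 has a wide gap between its points, at 18.6 and 8.65 TPM in hearts 1 and 2.

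By summed level the inhibitors led. The 4 Timp genes took 32.5 ± 0.950% of the set's TPM (SD, n = 2 here and below), the 33 Adam genes 22.8 ± 0.471%, the 23 Mmp genes 17.7 ± 0.288%, the 5 Adamtsl genes 14.3 ± 1.03% and the 19 Adamts genes 12.7 ± 1.22%. The Adamtsl and Adamts shares were near equal in heart 1 (13.57% and 13.56%) and further apart in heart 2 (15.0% and 11.8%). Their order turned round when shares were taken from expected counts, which are not scaled for length (10.4% and 18.8%). It did so too with protein-coding transcripts alone (10.6% and 12.2%). Summed Timp TPM exceeded summed Mmp TPM by 1.78-fold in heart 1 and 1.90-fold in heart 2.

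Among the inhibitors, Timp3, a TIMP that binds to the extracellular matrix and also inhibits ADAM17, was highest at 79.6 TPM in heart 1 and 77.3 TPM in heart 2, a mean of 78.4 ± 1.65 TPM and rank 700 among protein-coding genes. Timp2, which inhibits MMPs and also takes part in the activation of the MMP2 precursor at the cell surface, followed at 48.8 and 43.7 TPM. Timp4, known for its high expression in adult heart, stood at 19.3 and 20.1 TPM. Timp1, a secreted inhibitor that is known to be induced in inflammation and injury, was the lowest at 2.81 and 1.85 TPM, from 72 and 48 expected counts. The 4 levels kept the order Timp3, Timp2, Timp4, Timp1 in each heart, with gaps between neighbours wider than the spread of the hearts. Their log2 ratios of heart 1 over heart 2 were 0.05 for Timp3, 0.19 for Timp2, -0.06 for Timp4 and 0.62 for Timp1, the last with a 95% counting interval of 0.08 to 1.19.

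The Timp genes share a feature of position, since Timp1, Timp3 and Timp4 each lie wholly inside a synapsin gene on the opposite strand. Timp3 occupies chromosome 10, positions 86300372 to 86349506 on the plus strand (mm10), within Syn3, which stood at 0.13 and 0.08 TPM in hearts 1 and 2. Timp4 occupies chromosome 6, positions 115241892 to 115252205 on the minus strand, within Syn2, at 2.20 and 2.10 TPM. Timp1 occupies chromosome X, positions 20870166 to 20874735 on the plus strand, within Syn1, at 0.10 and 0.06 TPM. Timp2, on chromosome 11 from 118301069 to 118355740 on the minus strand, overlaps Cep295nl on the same strand, which had 0.25 and 0.28 TPM. The 3 synapsin genes were at lower levels than the inhibitors inside them. The libraries are labelled as stranded, but no source used here says how the counting treated strand, so values of overlapping genes carry that uncertainty.

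Of the matrix metalloproteinases, Mmp2 and Mmp15 made up most of the family's level. Mmp2, the gelatinase that cuts denatured and basement membrane collagen, was at 39.1 TPM in heart 1 and 33.8 TPM in heart 2 (2973 and 2515 expected counts). It lies on chromosome 8 from 92827291 to 92853420 on the plus strand. Mmp15, a membrane-type MMP, was at 26.4 and 25.0 TPM. Mmp14, the membrane-type enzyme that activates the MMP2 precursor and itself cuts fibrillar collagen, had 8.06 and 4.64 TPM from 625 and 378 counts, the widest relative gap among the 5 highest Mmp genes. Mmp23, which is anchored in the membrane and released by furin-like cleavage, had 3.62 and 3.45 TPM from 138 counts in each heart. Mmp28, or epilysin, had 2.13 and 2.44 TPM. Mmp19 had 1.74 and 1.48 TPM. Mmp11 had 1.46 and 2.16 TPM, but 3367 bases of its span lie under Chchd10 on the opposite strand, a mitochondrial protein gene at 652 and 702 TPM, so its value is uncertain.

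The inducible collagenases, stromelysins and gelatinase B were at the edge of detection. Mmp9, gelatinase B, a product of neutrophils and macrophages, had 26 expected counts in each heart, or 0.45 and 0.32 TPM, and 27 and 25 counts or 1.08 and 0.74 TPM in the second quantification described further on. Mmp3, the first stromelysin, had 17 and 6 counts in hearts 1 and 2, while Mmp13, the main interstitial collagenase of rodents, had 6 and 18. Mmp12, the macrophage elastase, had 10 in each, or 27.3 and 46.2 in the second quantification, and Mmp8, the neutrophil collagenase, had 5 and 4. Macrophage markers summed to 63.6 and 62.3 TPM and neutrophil markers to 5.61 and 4.20 TPM. Genes with no counts allow up to 3 counts, or 0.0717 CPM in heart 1 and 0.0706 CPM in heart 2 (counts scaled to library total), so a level below that was not detectable at this depth.

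Most of these genes belong to a cluster of 10 Mmp genes on chromosome 9, from 7272514 to 7699585, that holds Mmp13, Mmp12, Mmp1b, Mmp3, Mmp1a, Mmp10, Mmp8, Mmp27, Mmp20 and Mmp7, taking neighbours no more than 500000 bases apart. None of the 10 reached 1 TPM in either heart, and the highest mean was 0.23 TPM, for Mmp12. Together they had 41 expected counts in heart 1 and 42 in heart 2, and 5 of them had none in either. By the second quantification, an alternative chosen after the data were seen, their counts were 54.3 and 79.2, and their highest mean was 0.38 TPM. The 13 Mmp genes elsewhere included all 7 that passed 1 TPM.

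The promoters of this cluster had letters in common that the choice of genes did not use. RefSeq promoter windows, from 250 bases before to 50 bases after the start, were matched for 53 of the 84 genes, in 58 windows, and all 10 cluster genes were among them. Of the 10 genes, 7 (Mmp13, Mmp12, Mmp1a, Mmp1b, Mmp3, Mmp10 and Mmp7) had both the AP-1 letters and TATAAA in a window, or 70.0%. The same pair was found in 1 of the other 43 matched genes, Adam29, and in 199 of 27025 genes with a window (0.736%). Counted separately, the AP-1 letters were in 10 of the 58 windows (17.2%, against 5.20% of all 32851 windows) and TATAAA in 12 (20.7%, against 8.32%). Of these, 7 and 8 were windows of the cluster. In the 46 windows of the other genes, the AP-1 letters were in 3 and TATAAA in 4, so the excess lay mainly in the cluster. The CRE letters TGACGTCA were in none of the 58, against 1.79% of all windows. The cluster genes are related neighbours of 1 family, so they are not independent cases.

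Among genes with a matched window, median CpG content was higher in the detected ones. Of the 32 genes at 1 TPM or more in both hearts, 22 had a matched window, in 25 windows. Across these, the median ratio of observed to expected CpG was 0.682 and the median GC content 65.3%. Across the 33 windows of the other 31 matched genes these were 0.103 and 43.7%, and over all 32851 windows 0.384 and 52.7%. Those 33 include the 12 windows of the chromosome 9 cluster, whose median ratio was 0.0862. The GC box letters GGGCGG or CCGCCC were in 20 of the 25 windows of detected genes and 7 of the 33 others, against 35.7% of all windows. Timp4, at a mean of 19.7 TPM, had the lowest CpG ratio among the windows of detected genes, 0.104. These are descriptions of sequence and were not tested against level.

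**Figure D2:**
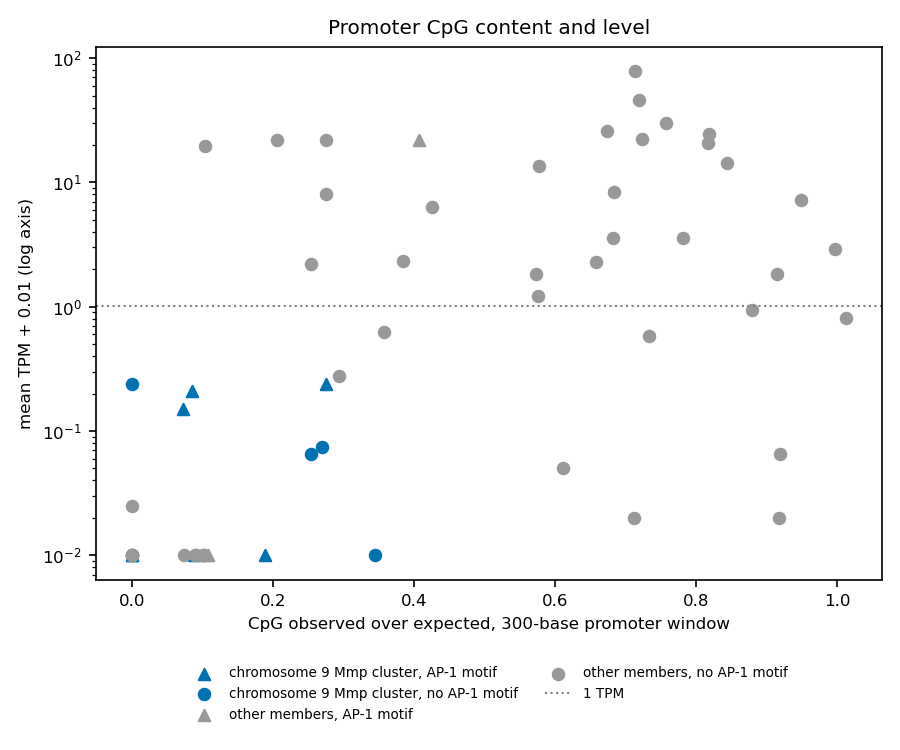
Each point is a 300-base promoter window of a gene of the set; the x axis is the ratio of observed to expected CpG, the y axis the mean TPM of both hearts plus 0.01 on a log scale, triangles mark windows with AP-1 letters and blue points the Mmp cluster of chromosome 9. Cluster windows lie at a CpG ratio of 0.345 or less and below the dotted line at 1 TPM.

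The ADAM family was split between a few broadly expressed genes and a long remainder without counts. Above that remainder, 5 genes stood above 10 TPM in both hearts. Adam15 had 25.5 TPM in heart 1 and 23.1 TPM in heart 2. Adam19, an ADAM needed for endocardial cushion development in mice, had 25.4 and 18.2 TPM. Adam17, the convertase that sheds tumour necrosis factor and ligands of the epidermal growth factor receptor, had 21.4 and 20.1 TPM. Adam9 had 15.3 and 15.5 TPM, and Adam10, which cuts Notch receptors and cadherins, had 14.9 and 13.5 TPM. Adam19 overlapped in range with both Adam15 and Adam17, so the order of these 3 is not set by the data. Next came Adam11 at 1.79 and 2.29 TPM and Adam22 at 1.53 and 0.90 TPM, both catalytically inactive members known mainly from neurons.

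In contrast, 16 of 33 Adam genes had no counts in either heart in the first quantification. They include several that are known for expression in testis and sperm, such as Adam3, Adam18 and Adam24. In the second quantification Adam28, another of the 16, had 1.12 and 5.06 counts in hearts 1 and 2, and Adam3 had 0 and 1. The 9 testis germ cell markers summed to only 0.22 and 0.34 TPM here, with Prm1, Prm2, Tnp1 and Acrv1 at 0. A cluster on chromosome 8 from 40675077 to 40827037 (Adam24, Adam25, Adam20 and Adam39) and another from 43519762 to 43710049 (Adam26b, Adam26a and Adam34) had no counts. One more chromosome 8 cluster, from 24602246 to 25016927, holds Adam18, Adam3, Adam5, Adam32 and Adam9, and Adam9 alone carried all but 5 of its 2034 counts in heart 1 and all but 8 of its 2000 counts in heart 2. Adam4, which lies inside Cox16 on the same strand, and Adam1a, which overlaps Mapkapk5 on the same strand, had fractional expected counts and are uncertain.

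Secreted ADAMTS proteases were spread at low to moderate levels. Adamts1, which cuts versican and aggrecan, had the highest mean of the family with 18.6 TPM in heart 1 and 8.65 TPM in heart 2. Adamts9, another versican-cutting protease, had 9.20 and 7.43 TPM. Adamts2, which removes the amino-terminal propeptide of fibrillar procollagens, had 7.48 and 6.91 TPM. Adamts10, linked in humans to fibrillin microfibrils, had 5.76 and 7.27 TPM, and Adamts7, known for cutting cartilage oligomeric matrix protein, had 5.68 and 6.55 TPM. In the order Adamts9, Adamts2, Adamts10, Adamts7, each gene's range over the hearts overlapped that of the next. Adamts5, an aggrecanase, had 3.42 and 4.19 TPM. Adamts13, which cuts von Willebrand factor, had no counts in either heart.

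The protease-free ADAMTS-like genes held a level above that of the 19 Adamts genes in summed TPM in heart 2 and a near-equal one in heart 1. Adamtsl5 had 29.2 TPM in heart 1 and 30.9 TPM in heart 2, and Adamtsl4, a fibrillin-associated protein, had 21.9 and 23.0 TPM. Adamtsl2, linked in humans to geleophysic dysplasia, had 8.56 and 7.48 TPM. Adamtsl3 had 3.37 and 2.39 TPM and Adamtsl1 1.07 and 0.89 TPM. For Adamtsl3 the count went the other way, with 472 expected counts in heart 1 and 516 in heart 2, and TPM also depends on the lengths of the transcripts to which the counts were assigned.

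How far the hearts differed was measured by the log2 ratio of heart 1 over heart 2 of expected counts, scaled by TMM, with an exact 95% interval that covers counting error only. With 2 samples no test is possible, since an exact sign permutation cannot go below p = 0.5, so a rule of size was used: at least 2-fold between the hearts in genes averaging 50 or more expected counts. Under it, 3 of 43 genes of the set differed, all higher in heart 1, against 161 of 12541 genes overall (1.28%). Over all genes, 1% were higher in heart 1 and 0.279% in heart 2. At 1.5-fold, 7 of 43 genes differed, again all higher in heart 1, against 4.27% of all genes, of which 2.58% were higher in heart 1 and 1.69% in heart 2. The median log2 ratio was 0.08 over the 51 genes with a mean count of 10 or more, and -0.0012 over all 15749 such genes, and 32 of the 51 (62.7%) were higher in heart 1 against 49.7% overall. Scaled by spike-ins, 26 of the 51 were higher in heart 1 and 25 in heart 2, and the median of all genes was then -0.075.

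Adamts1 was the abundant gene among the 3, with 2833 expected counts in heart 1 and 1353 in heart 2. Its log2 ratio was 1.11 (interval 1.02 to 1.21), or 2.16-fold. It lies on chromosome 16 from 85793827 to 85803113 on the minus strand, next to Adamts5, whose ratio was -0.25 (interval -0.36 to -0.14), so the neighbours differed in direction. Adamts4, an aggrecanase, had 110 and 49 counts and a log2 ratio of 1.19 (interval 0.71 to 1.73). Adam12, known from muscle regeneration and activated mesenchymal cells, had 124 and 48 counts and a log2 ratio of 1.40 (interval 0.92 to 1.93). With TMM scaling, the intervals of Adamts4 and Adam12 reach below 2-fold, whereas that of Adamts1 narrowly does not. The log2 ratio of Adamts1 was 1.09 by library totals and 1.04 by spike-in scaling. Intervals were not computed for those scalings, so the contrast is given for TMM only.

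The 4 further genes past 1.5-fold were Adamts15, Mmp14, Adamts8 and Timp1, the last under 1.5-fold when scaled by spike-ins (log2 ratio 0.55). Adamts15, a versican-cutting protease, had 697 and 397 counts in hearts 1 and 2 (log2 ratio 0.86, interval 0.68 to 1.04), and Adamts8, its neighbour on chromosome 9, had 219 and 141 counts (0.68, interval 0.37 to 1.00). Mmp14 had a log2 ratio of 0.77 (interval 0.58 to 0.96), on chromosome 14 from 54431612 to 54445364. The Adamts family as a whole had the highest median, 0.49, with 12 of its 16 measured genes higher in heart 1 under each scaling tried. The medians of the Timp, Adam and Mmp genes were 0.12, 0.07 and 0.04, with those of Adam and Mmp at -0.0022 and -0.03 under spike-in scaling, and that of the Adamtsl genes was -0.06, with 1 of 5 higher in heart 1.

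**Figure D3:**
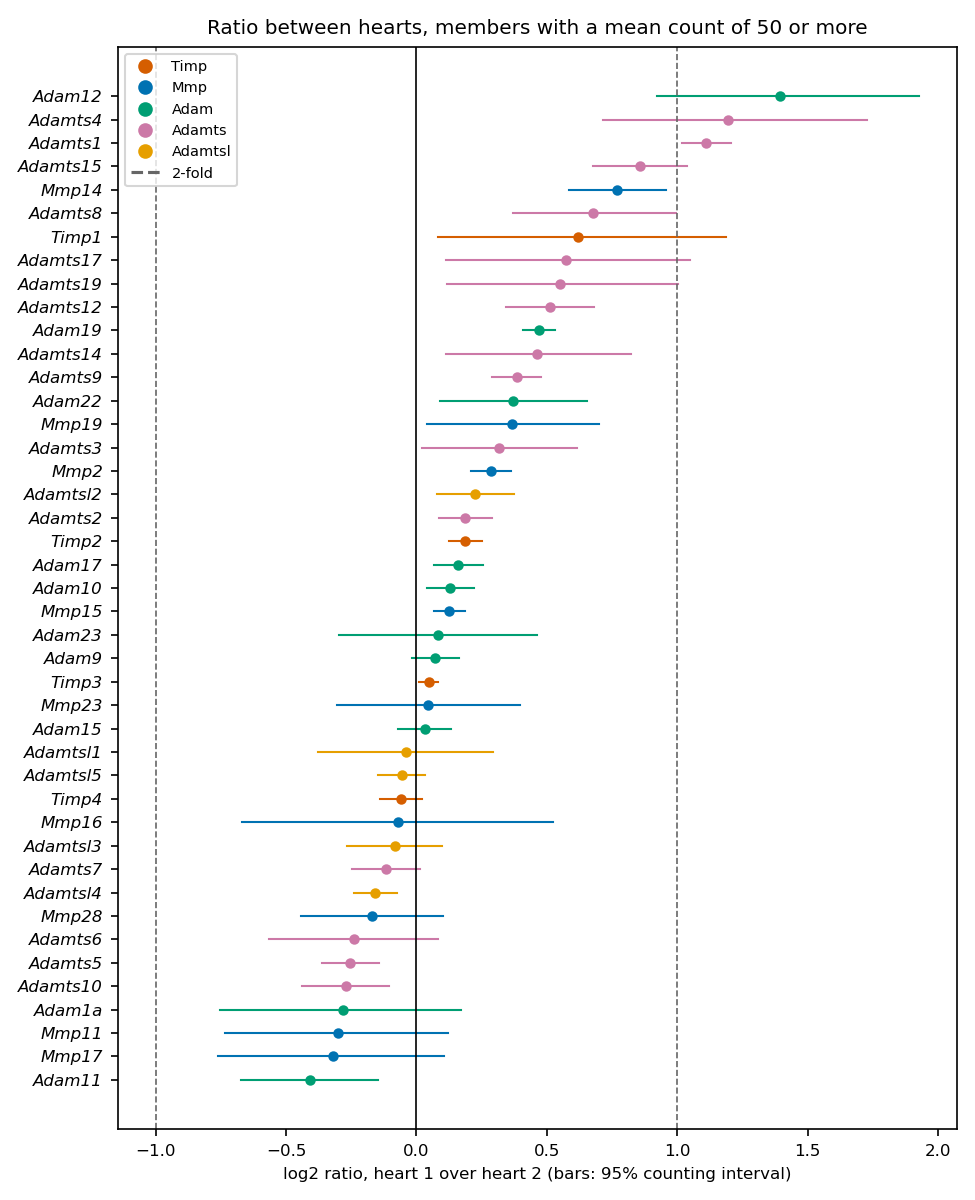
Log2 ratio of heart 1 over heart 2 for the 43 genes that average at least 50 expected counts, ordered by ratio; bars are exact 95% counting intervals, colours the families and dashed lines 2-fold. Adam12, Adamts4 and Adamts1 lie beyond the right dashed line, at 1.40, 1.19 and 1.11, and no gene lies beyond the left.

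Cell type markers differed between the hearts in both directions. All 7 mesothelial and epicardial markers were higher in heart 1 (median log2 ratio 0.39), as were 6 of 8 fibroblast markers (median 0.26, with 5 of 8 under spike-in scaling), all 6 erythroid markers (median 1.19) and the 5 measured adipocyte markers (median 3.26). Among the adipocyte markers, Ucp1, the uncoupling protein of brown fat, had 31.6 and 0.89 TPM and Adipoq, the fat hormone adiponectin, 7.14 and 1.38 TPM. Cardiomyocyte markers were all lower in heart 1 (0 of 8 higher, median -0.10). Endothelial markers had a median of 0.03, with 6 of 8 higher in heart 1, or -0.04 with 3 of 8 under spike-in scaling. With TMM scaling Kdr and Egfl7 of that list were lower in heart 1, at log2 ratios of -0.43 and -0.55. Lymphocyte markers were also lower in heart 1, with 0 of 4 measured higher (median -1.04) and sums of 1.35 and 3.13 TPM. Of 7 macrophage markers 4 were lower in heart 1 (median -0.07), among them Cx3cr1, a chemokine receptor gene, at 0.63 and 2.01 TPM (log2 ratio -1.75). Within the fibroblast list the log2 ratios ran between -0.06 for Tcf21 and 0.57 for Postn, with Dcn, which encodes decorin, at 156 and 161 TPM. The part of these cell types in the Adamts and Mmp14 ratios was not tested.

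Genes of matrix substrates were mostly higher in heart 1 as well. Of 12 matrix genes, 10 were at 1 TPM or more in both hearts, and 10 of the 11 measured were higher in heart 1 (median log2 ratio 0.38), none of them by 2-fold. The highest were Col4a1 at 259 and 194 TPM, Col3a1 at 178 and 134 TPM and Col4a2 at 122 and 104 TPM, chains of basement membrane and fibrillar collagen. Eln, which encodes elastin, had 63.8 and 37.9 TPM (log2 ratio 0.78), and Vcan, the versican substrate of ADAMTS1, ADAMTS9 and ADAMTS15, had 6.38 and 3.58 TPM (0.68). Acan, the aggrecan substrate, was near the floor at 0.04 and 0.07 TPM. Col1a1 and Col3a1 also stand in the fibroblast list, so the lists are not separate evidence.

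Genes that activate or restrain secreted proteases were within 2-fold between hearts, with 1 exception. Of 17 such genes 13 were at 1 TPM or more in both, and 1 of 15 with a mean count of 50 or more passed 2-fold, against 1.28% of all genes. That gene was Thbs1, a matricellular glycoprotein that binds MMPs, with 13.7 TPM in heart 1 and 4.00 TPM in heart 2 (log2 ratio 1.81, interval 1.70 to 1.93). The highest were Bsg (basigin, an inducer of MMPs) at 468 and 513 TPM, Cav1 (caveolin) at 108 and 105 TPM, and Furin, which removes the propeptides of membrane-type MMPs and ADAMs, at 43.7 and 44.3 TPM. Plg, the plasminogen gene of the liver, had no counts. Reck, a membrane-anchored MMP inhibitor, had 2.42 and 2.34 TPM.

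Most partners of the surface sheddases were detected in both hearts. Of 9 partner genes, 2 are iRhoms, which carry ADAM17 to the cell surface, 1 is the iRhom-binding protein gene Frmd8, and 6 are TspanC8 tetraspanins, which do so for ADAM10. Of the 9, 7 were at 1 TPM or more in both hearts. With a mean count of 50 or more (well measured), 0 of 7 passed 2-fold. Over all genes with that count 1.28% passed, so few or none would be expected in this list and those below. Rhbdf1 had 7.90 and 8.96 TPM, Tspan14 7.84 and 5.79 TPM, and Rhbdf2 4.54 and 5.65 TPM. Of 17 surface proteins known to be shed, 11 reached that level and 0 of 14 well measured passed 2-fold. Their highest were Cdh2 (N-cadherin) at 86.0 and 83.5 TPM, App at 60.3 and 58.1 TPM and Cdh5 (vascular endothelial cadherin) at 55.8 and 58.7 TPM, whereas Areg had no counts and Tnf had 6 and 11. Of 10 other metzincins and ADAMTS-related genes, 3 reached that level and 0 of 5 well measured passed 2-fold. They were led by the procollagen C-proteinase Bmp1 at 8.87 and 8.40 TPM, Papln at 4.44 and 4.20 TPM and Thsd4 at 2.18 and 1.98 TPM.

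Gene levels hid differences in transcript make-up. Of 19 genes with a mean of 5 TPM or more, 18 had the same main transcript in both hearts, and 18 had a protein-coding main transcript in both. The exception to both was Adamtsl5, whose main entry was a retained-intron transcript of 3520 nt in heart 1, at 28.5% of the gene's TPM, and a coding transcript of 1957 nt in heart 2, at 27.0%. Only 49.4 ± 2.69% of Adamtsl5 TPM fell on protein-coding transcripts, with 35.8 ± 1.59% on retained-intron ones. In the second quantification the coding share of Adamtsl5 was 26.6% in heart 1 and 31.6% in heart 2, and the 3520-nt retained-intron transcript was the main entry in both. The coding share of Adamts10 in the second quantification was 36.0% in heart 1 and 40.8% in heart 2, above that of Adamtsl5. In the first quantification it was below that of Adamtsl5, at 28.3% in heart 1 and 39.7% in heart 2. Retained-intron transcripts of Adamts10 then held 47.6% and 49.7%. Adamtsl2 had 30.6 ± 0.974% on retained introns, and Adam10 had 18.4 ± 4.65% on transcripts annotated as targets of nonsense-mediated decay. The coding shares of Adam15 and Adam17 were 58.0 ± 5.43% and 65.2 ± 0.332% in the first quantification. In the second they were 66.5% in heart 1 and 81.9% in heart 2 for Adam15, and 77.4% and 80.1% for Adam17. At the other end, the mean coding share lay between 98.2% and 100% for Timp2, Timp3, Timp4, Mmp2, Mmp15, Adam9 and Adamts1.

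**Figure D4:**
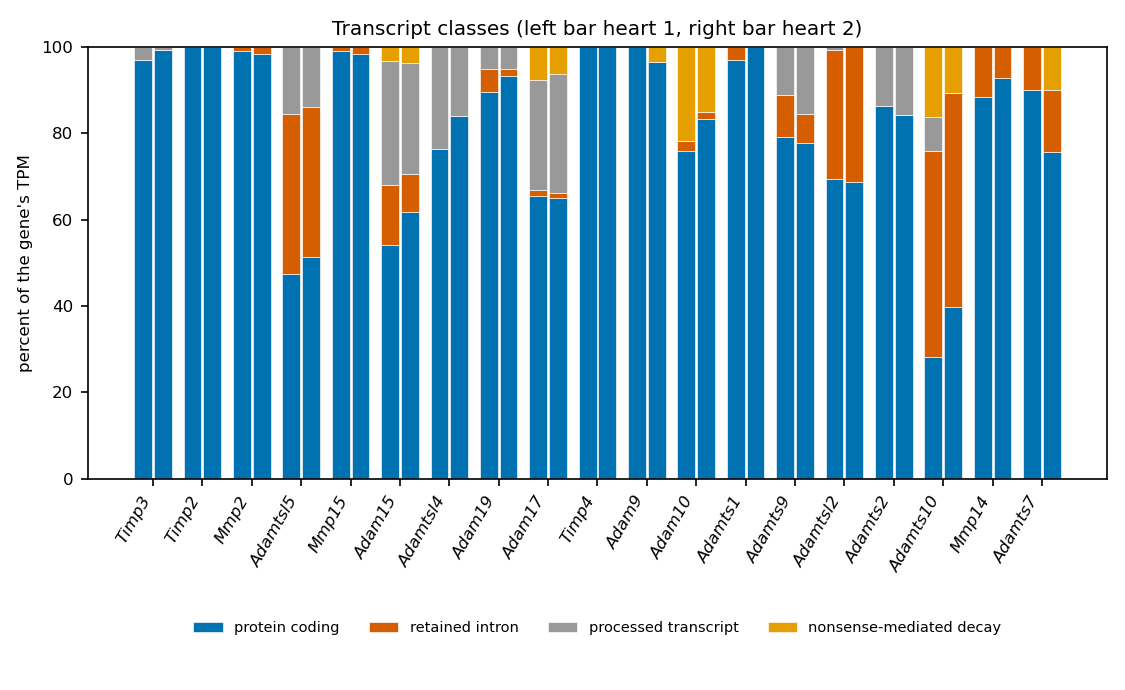
Percent of each gene's TPM on 4 annotated transcript classes for the 19 genes with a mean of 5 TPM or more, ordered by level; for each gene the left bar is heart 1 and the right bar heart 2. Adamts10 and Adamtsl5 have the lowest blue, protein-coding, parts.

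A second quantification of the same reads, which the sample notes describe as built on an index, gave close values for most genes. Of 35 genes at 1 TPM or more in either, 32 lay within 1.5-fold and none differed by 2-fold, and the ratio of the first over the second had a median of 0.887. The extremes were Timp2 at 0.604 and Adam17 at 1.30. Below that level, Mmp9 was 2.37-fold higher in the second than in the first. Timp2 averaged 46.2 ± 3.62 TPM by the first method and 76.6 ± 6.54 TPM by the second, and its main transcript differed. A coding transcript of 3709 nt held 65.0% and 65.7% in hearts 1 and 2 in the first, whereas another, of 718 nt, held 56.2% and 54.8% in the second. By the second quantification Timp3 averaged 88.5 TPM, so its gap to Timp2 was smaller. For Adam17 a 375-nt processed transcript took 25.5% and 27.4% of the first quantification and none of the second. For Adam15 a 418-nt processed transcript took 28.2% in heart 1 and 23.2% in heart 2 of the first and none of the second. Adam19 averaged 21.8 ± 5.15 TPM by the first and 32.9 ± 9.36 TPM by the second, and Adam23 0.925 and 1.45 TPM.

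**Figure D5:**
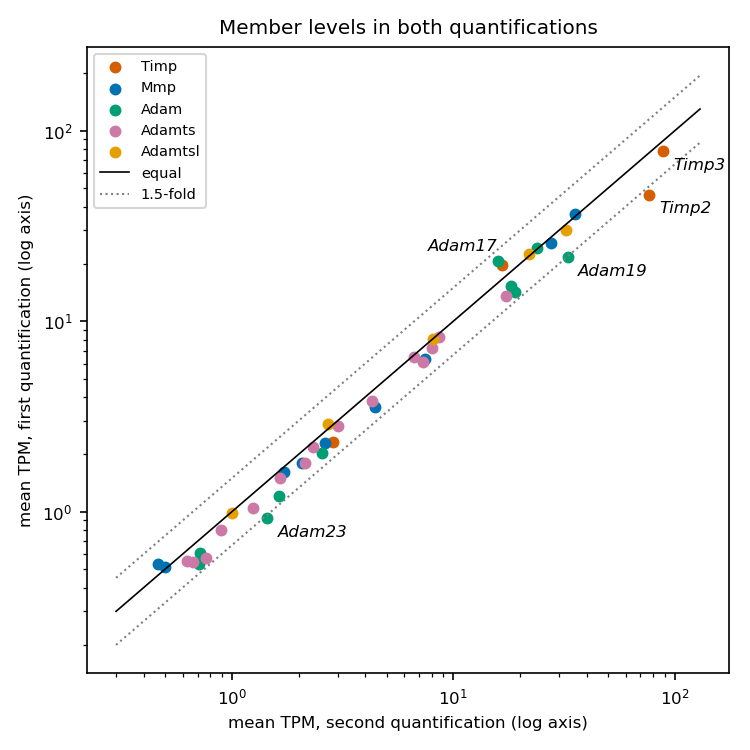
Mean TPM of both hearts in the first quantification (y axis) against the second (x axis), both on log scales, for genes with a mean of 0.5 TPM or more; the solid line is equality and dotted lines 1.5-fold. Timp2, Adam19 and Adam23 lie beyond the lower dotted line.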

How the data were processed

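Total RNA-seq libraries of both hearts were analysed from the deposited quantifications. The labels name the genome build mm10. The first quantification, as deposited, holds expected counts, TPM and FPKM per gene and transcript, and the percent of a gene's TPM on each transcript, per the file headers. The second, also deposited, holds estimated counts and TPM per transcript, which were summed per gene. FPKM served only as an alternative for detection. The tools behind both were not given in the sources read. Gene classes and positions, counted from 1, come from GENCODE M21.

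Expected counts were rounded and scaled by TMM in edgeR 4.0.16 (DESeq2 1.42.0 size factors as an alternative, R 4.3.3) over all genes without spike-ins. The log2 ratio of heart 1 over heart 2 used a prior count of 1 and an exact Clopper-Pearson interval (scipy 1.17.1). The ratio calculation was also run on simulated counts with counting error only, which cannot show how ratios behave between real hearts. Since no molecular identifiers are described and reads may repeat molecules, intervals and floors reflect counting error alone. Reads of both parental alleles were set against a single reference, and allele-level values were not used.

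Named were all Timp genes, the 5 genes of highest mean TPM in each other family, every gene past the 2-fold rule, genes at 5 TPM or more with a non-coding or differing main transcript, and the 3 highest genes of each partner list. Genes past 1.5-fold, low Mmp genes, overlaps, the markers named and other genes outside this rule were picked after their values were seen. The promoter motifs were also chosen after the levels were known. The members and gene lists were chosen with earlier results of these data known. Protein sequences were not analysed here. One overlap between genes is not reported here.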

Additional observations from a re-analysis of the deposited data

How the results depend on the processing

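The depth limits the low genes: at 17 and 6 counts, as for Mmp3, only large differences could be seen, and with 2 hearts no difference was tested. No paired analysis was possible because the samples form 1 group. Detection fell to 18 genes at a minimum of 5 TPM. Family shares moved with the measure: by the second quantification they were 16.2% for Mmp, 35.6% for Timp and 12.8% for Adamtsl; by expected counts 15.1% for Mmp, 18.8% for Adamts and 10.4% for Adamtsl; and on protein-coding transcripts 19.7% for Mmp, 37.3% for Timp, 20.1% for Adam, 12.2% for Adamts and 10.6% for Adamtsl. Timp over Mmp was 2.20 by the second quantification and 2.21 by expected counts. Genes of the set past the rule of size numbered 5 at a mean count of 10, 1 at 200, 7 at 1.5-fold and 7 without a filter, against 561, 83, 535 and 4118 over all genes. The median log2 ratio of the set was 0.0077 with spike-in scaling, under which the median of all genes was -0.075, and 0.16 by the second quantification. At a minimum of 1 TPM, 31 of 33 genes shared their main transcript between hearts. The causes were not tested. The log2 ratios of the 7 genes past 1.5-fold kept their direction and their side of the 2-fold rule in all 28 values, from 4 alternatives each, and 1 of the 28 was under 1.5-fold, Timp1 at 0.55 with spike-in scaling. With heart 1 or heart 2 left out, detection ranged from 32 to 34 genes, shares from 17.5 to 17.9% for Mmp, 31.9 to 33.2% for Timp, 22.4 to 23.1% for Adam, 11.8 to 13.6% for Adamts and 13.6 to 15.0% for Adamtsl, and Timp over Mmp from 1.78 to 1.90.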
